A study of Mus musculus with 31 samples.

Results

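The casein gene family of the mouse comprises Csn1s1, Csn2, Csn1s2a, Csn1s2b and Csn3, and its transcript levels were followed in mammary tissue of mice with 0, 1, 2 or 4 functional Stat5 alleles. The members were taken by gene symbol, and all 5 were found among the 22609 genes listed for each stage. Poly(A) RNA was sequenced on day 6 of pregnancy and at parturition, no later than 12 hours after delivery. The labels list 31 samples, 18 on day 6 and 13 at parturition. All mice shared the mixed strain 129SV::FVB/N::C57BL/6.

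The groups are named by the Stat5 alleles that were left. Null mice (Stat5abfl/fl;MMTV-Cre) lost both genes through a Cre recombinase driven by the MMTV promoter, which is active in mammary epithelial cells. The column labelled B came from mice with 1 Stat5b allele and no Stat5a (Stat5abnull/Stat5a-), and the column labelled A from mice with 1 Stat5a allele and no Stat5b (Stat5abnull/Stat5b-). BB mice were Stat5a-/- and kept 2 Stat5b alleles, and AB mice were Stat5ab+/null with 1 allele of each gene. The alleles of these 4 groups were lost in the germ line, in every tissue. AABB denotes wild type with 4 alleles. Each group held 3 samples on day 6, and at parturition 2, except for B with 3. The labels' protocol names 2 mice per genotype, so whether each sample is a separate animal is not known. The deposited tables give 1 value per gene, genotype and stage, computed by the authors as a mean of the samples. No value below therefore has an SD or a replicate check, no p-value is given, and whether 1 animal carried a mean cannot be seen.

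Caseins are the main proteins of milk. The calcium-sensitive caseins, encoded by Csn1s1, Csn2, Csn1s2a and Csn1s2b, carry clusters of phosphorylated serines that bind calcium phosphate, and kappa-casein, encoded by Csn3, coats and stabilises the micelles into which they assemble. The genes lie in a cluster on chromosome 5 and are transcribed in alveolar luminal cells. Prolactin acts on them through its receptor, the kinase JAK2 and the transcription factors STAT5A and STAT5B, which form dimers and bind palindromes of the form TTCNNNGAA. Glucocorticoid receptor, C/EBP-beta, NF1 factors and ELF5 are other known regulators of these genes.

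Promoter windows of 300 bases in RefSeq (build GRCm38.p6), from 250 bases before to 50 after a transcript start, were matched for 3 of the 5 members, Csn1s1, Csn2 and Csn1s2a. Entries for Csn1s2b and Csn3 were not found. The 3 sites are shown because each window held exactly 1 match to TTCNNNGAA, a palindrome that reads the same on both strands. The match is in capitals with 10 flanking bases on each side, 5′ to 3′ on the gene's strand.
Csn1s1: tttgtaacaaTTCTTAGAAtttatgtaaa
Csn2: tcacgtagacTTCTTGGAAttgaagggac
Csn1s2a: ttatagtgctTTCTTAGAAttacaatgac
These stretches lie at chr5:87666098-87666126 on the plus strand, chr5:87699500-87699528 on the minus strand and chr5:87774460-87774488 on the plus strand, respectively. The Csn1s1 and Csn1s2a matches had identical letters, and Csn2 differed from Csn1s1 by A6G, counted from the first base of the match. The match began 100 bases before the RefSeq start in Csn1s1 and 93 bases before it in Csn2. In Csn1s2a it began 20 bases after the RefSeq start, but 97 bases before the start of the gene in GENCODE M21, so the annotations place it on different sides. In Csn2 the match began 112 bases after the outermost GENCODE start, and whether it lies in an exon there was not examined. Of all 32851 windows, 8.30% held at least 1 TTCNNNGAA. Among other milk protein genes, 2 of the 12 with a window held it, Glycam1 and Pigr.

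The upstream part of the Csn1s1 window (chr5:87665958-87666207, plus strand) is shown whole, because it lies before the annotated start in both sources and holds the palindrome, again in capitals.
Csn1s1 upstream: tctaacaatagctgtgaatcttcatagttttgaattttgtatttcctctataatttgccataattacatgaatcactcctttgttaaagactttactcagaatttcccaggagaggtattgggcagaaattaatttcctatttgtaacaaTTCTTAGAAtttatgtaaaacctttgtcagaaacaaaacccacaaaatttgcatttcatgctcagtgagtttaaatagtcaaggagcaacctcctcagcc
The NF1 core motif TTGGC, searched on both strands as were all motifs, was found in the Csn2 window only, and in 46.7% of all windows. The glucocorticoid receptor core motif TGTTCT was found only in Csn1s2a, and in 18.97% of all windows. The ETS core GGAA was in each of the 3 windows and in 96.0% of all windows, with 4 matches in Csn1s1, 5 in Csn2 and 3 in Csn1s2a. One of those in Csn2 overlaps the palindrome. TATAAA was in none of the 3 windows and in 13.6% of all. These matches describe the letters of the windows and were not measured as bound sites.

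Levels below are FPKM, fragments relative to transcript length and to the mapped total, which allow members to be compared. They were scaled between the 6 columns of a stage by the median ratio over commonly detected genes. The FPKM sum of a column ranged from 433958 to 528347 on day 6 and from 432576 to 1190590 at parturition, and read depth is unknown. Stat5a was lowest in BB at both stages (3.67 and 4.30). Stat5a was higher in A (15.9 on day 6 and 16.5 at parturition) than in B (12.5 and 8.60), and Stat5b was higher in B (12.3 and 12.6) than in A (10.6 and 10.3), the direction of the labels at both stages. Transcript of the removed gene was thus present in both columns. Levels did not follow the allele number in every column. On day 6 Stat5a was 13.6 in Null and 13.4 in AB. Stat5b in AB (11.7 on day 6 and 11.2 at parturition) was below B at both stages. At parturition Stat5b in BB (12.6) was no higher than in B. The luminal markers Krt8, Krt18, Krt19 and Epcam were present in every column, at 102 or more. The lowest of the 8 luminal markers stood between 12.0 and 51.6, depending on the column. No stretch of 36 bases was shared between annotated transcripts of any 2 members, so their reads can be told apart at that length.

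At parturition, wild-type casein levels stood 483-fold (Csn2) to 1578-fold (Csn1s2b) above Null. With columns of equal allele number averaged on the log2 scale, the largest step for 4 of the 5 members lay between 1 and 2 alleles. For Csn3 this rests on the scaling. Relative to the FPKM sum of each column, Csn3 was at 0.625% of wild type in Null, 4.61% in B and 7.18% in A. It was at 48.7% in BB and 42.5% in AB, so its step from 0 to 1 allele was then the larger. Along the A column alone, Csn2 and Csn3 had their largest step from Null to A. It was 15.3-fold for Csn2 and 13.2-fold for Csn3, against 12.7-fold and 9.88-fold from A to AB. The members together made up 0.324% of the FPKM sum in Null, 1.17% in B, 3.47% in A, 33.5% in BB, 30.7% in AB and 43.4% in wild type. Csn1s2b departed from this, because with 2 alleles it was still below 2% of its wild-type level.

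**Figure D1:**
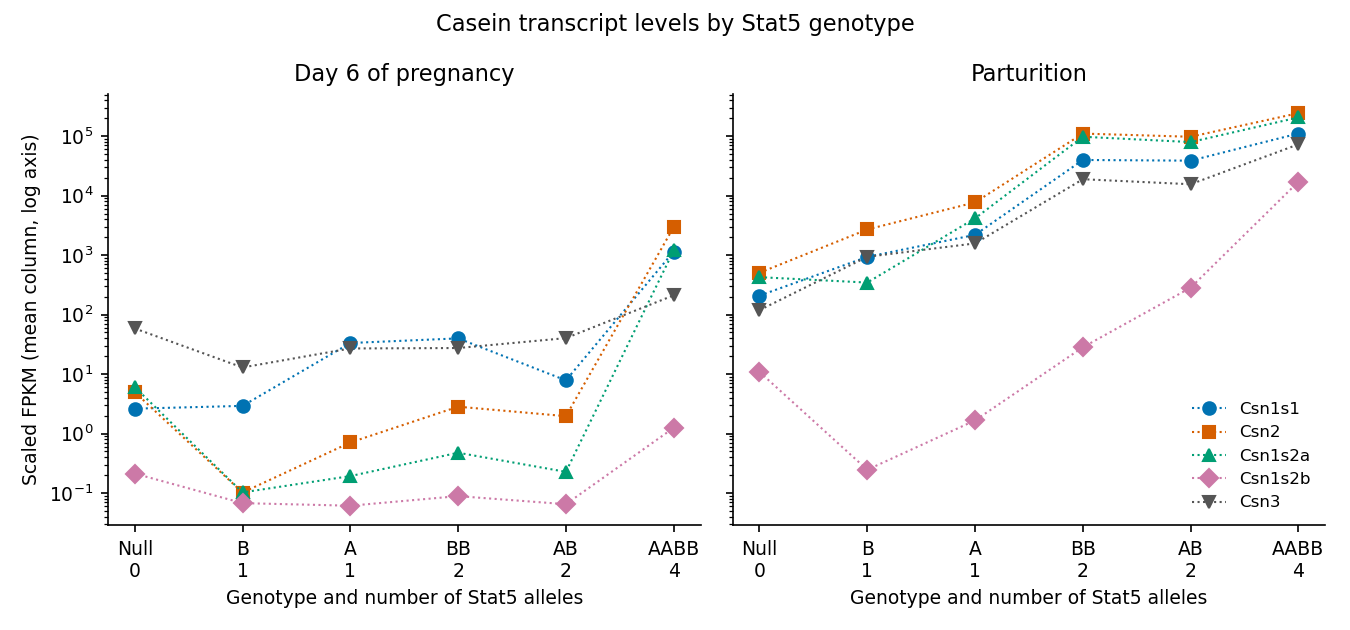
Scaled FPKM of the 5 casein genes (log axis) in each genotype column, with the number of Stat5 alleles under its name, on day 6 of pregnancy (left) and at parturition (right). Each point is the authors' mean over 2 or 3 samples, dotted lines only guide the eye, and the 2 stages were normalised separately. Csn2 reaches 110456 in BB at parturition but only 2.83 in BB on day 6, and Csn1s2b lies below the other members in every column.

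Csn2 encodes beta-casein and was the most abundant transcript of the whole column in BB, AB and wild type. Its levels at parturition were 504 in Null, 2698 in B, 7706 in A, 110456 in BB, 97643 in AB and 243805 in wild type. As a share of wild type these are 0.207%, 1.11%, 3.16%, 45.3% and 40.0%. The order of the columns is thus Null, B, A, AB, BB and wild type, and BB was 1.13-fold above AB.

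Csn1s1 encodes alpha-s1-casein, which takes part in moving caseins out of the endoplasmic reticulum. It stood at 208 in Null, 934 in B, 2191 in A, 39756 in BB, 38716 in AB and 110787 in wild type. The single-allele columns reached 0.843% and 1.98% of wild type, and the 2-allele columns 35.9% and 34.9%. Csn1s1 ranked 253rd of all genes in Null and 3rd in BB.

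Csn1s2a encodes an alpha-s2-like casein, also known as gamma-casein. It was 426 in Null, 345 in B, 4152 in A, 97698 in BB, 79476 in AB and 206614 in wild type. It was the only member besides Csn1s2b whose level in B was not above Null. The 2-allele columns stood at 47.3% and 38.5% of wild type, the highest share in BB of all members.

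Csn1s2b encodes a further alpha-s2-like casein and lies next to Csn1s2a in the cluster. It was 10.9 in Null, 0.246 in B, 1.66 in A, 28.2 in BB, 284 in AB and 17144 in wild type. Shares of wild type were 0.0634% in Null, 0.00143% in B, 0.00970% in A, 0.165% in BB and 1.65% in AB. Wild type was therefore 607-fold above BB and 60.5-fold above AB, where for the other 4 members it was between 2.11-fold and 4.69-fold above them. In wild type it ranked 9th of all genes, and in BB 2575th.

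Csn3 encodes kappa-casein. Its levels were 119 in Null, 937 in B, 1574 in A, 18873 in BB, 15544 in AB and 72859 in wild type. With 2 alleles it reached 25.9% and 21.3% of wild type, below Csn2, Csn1s1 and Csn1s2a in the same columns.

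Differences are given as log2 ratios of scaled FPKM + 1, and a gene is counted as lower or higher when it differs at least 2-fold on that scale. All 5 members were lower than wild type in each of the 5 other genotypes. Of the 13061 genes tested at parturition, 10.7% were lower in Null, 10.1% in B, 10% in A, 5.37% in BB and 5.45% in AB, and 19.1%, 18.2%, 17.3%, 8.07% and 10.2% were higher. Median log2 ratios of the members were −9.05, −6.89, −5.64, −1.48 and −1.52, against 0.10, 0.11, 0.10, 0.05 and 0.04 over all tested genes. These comparisons share the wild-type column. In BB and AB the counts rest on the scaling. Relative to the summed FPKM of each column, Csn1s1, Csn2 and Csn1s2a stood at 67.5%, 85.2% and 88.96% of wild type in BB and at 69.6%, 79.7% and 76.6% in AB, so 19 of the 25 member ratios stayed lower. On that scale the median of all genes was at log2 0.79 in BB and 0.85 in AB, with 170 genes lower and 4446 higher in BB in place of 702 and 1054, and 138 and 5255 in AB in place of 712 and 1334. Csn1s2b remained at 0.310% and 3.29% on it.

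**Figure D2:**
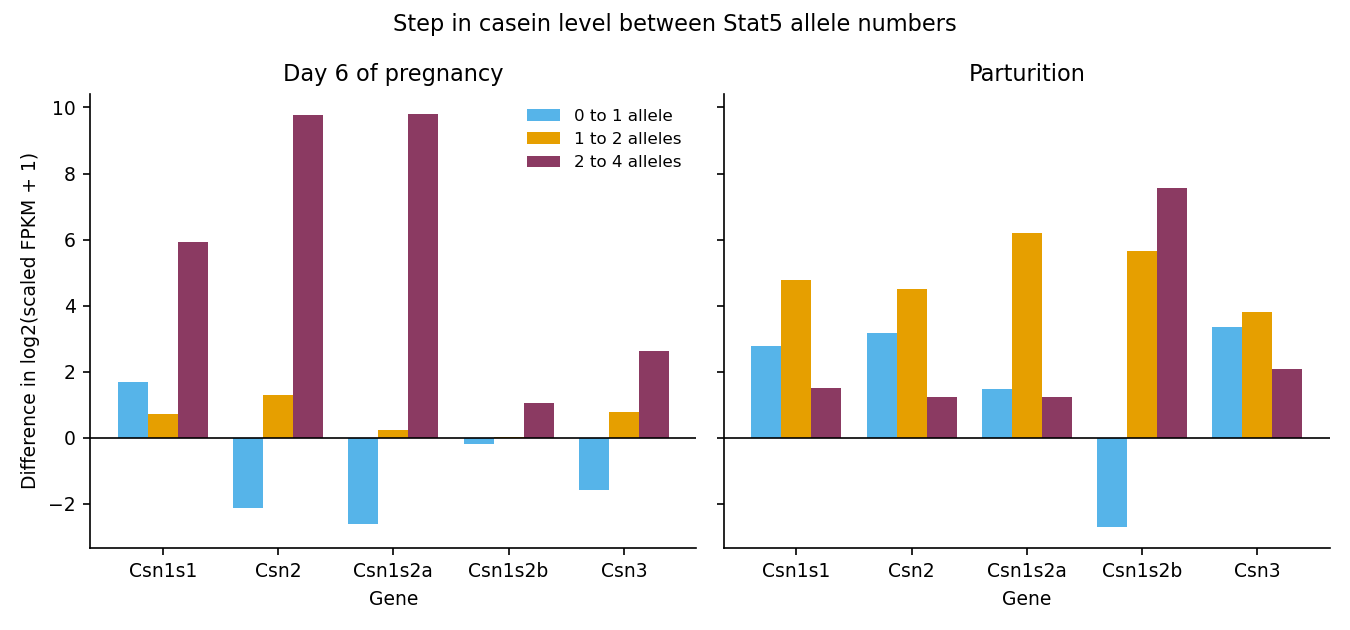
Difference in log2(scaled FPKM + 1) between allele numbers for each casein gene, where 1 allele is the mean of the B and A columns and 2 alleles the mean of BB and AB on the log2 scale. On day 6 the step from 2 to 4 alleles is the largest for every member. Csn1s2b, at 1.25 in wild type and at most 0.212 elsewhere, did not enter the tested set of that stage. At parturition the step from 2 to 4 alleles is the largest only for Csn1s2b (7.55), while that from 1 to 2 is the largest for the others (3.82 to 6.20). Relative to the FPKM sum of each column, the step from 0 to 1 allele is the larger for Csn3 at parturition.

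The order of the members in the steps below holds for columns of equal allele number averaged on this log2 scale. It differed between single columns. From B to BB Csn1s2a had the largest step (8.14, with Csn1s2b at 4.55), and from A to AB Csn1s2b (6.74, with Csn1s2a at 4.26). From 1 to 2 alleles at parturition the mean log2 level was higher by 6.20 for Csn1s2a, 5.65 for Csn1s2b, 4.78 for Csn1s1, 4.51 for Csn2 and 3.82 for Csn3. From 2 to 4 alleles the differences were 1.23 for Csn1s2a and Csn2, 1.498 for Csn1s1, 2.09 for Csn3 and 7.55 for Csn1s2b. From 0 to 1 allele they were 3.34 for Csn3, 3.17 for Csn2, 2.77 for Csn1s1, 1.49 for Csn1s2a and −2.70 for Csn1s2b. Between Null and the single-allele genotypes, the number of alleles and the way they were removed differ together and cannot be told apart.

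Adding a second allele could be followed from B to BB and from A to AB, which each add 1 Stat5b allele. All 5 members were higher in BB than in B, by 42.6-fold for Csn1s1, 40.9-fold for Csn2, 283-fold for Csn1s2a, 115-fold for Csn1s2b and 20.1-fold for Csn3 as ratios of scaled FPKM. In that comparison 3.25% of tested genes were higher. All 5 were also higher in AB than in A, by 17.7-fold, 12.7-fold, 19.1-fold, 171-fold and 9.88-fold in the same order, where 2.7% of tested genes were higher. From B to AB, which adds 1 Stat5a allele, all 5 were higher as well, from 16.6-fold for Csn3 to 1153-fold for Csn1s2b, with 2.97% of tested genes higher. The Csn1s2b ratios divide by levels of 0.246 in B and 1.66 in A, whose precision is unknown. With 1 FPKM added to both levels they were 23.5-fold from B to BB, 107-fold from A to AB and 228-fold from B to AB.

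Null and the single-allele columns did not stand in 1 order for all members. Csn1s1, Csn2 and Csn3 were 4.49-fold, 5.35-fold and 7.89-fold higher in B than in Null (2.72% of tested genes were higher). Csn1s2a was 0.812 of its Null level in B, and Csn1s2b 0.0226 of it, or 9.52-fold lower with 1 FPKM added (2.86% of tested genes were lower). In A, 4 members were 9.76-fold to 15.3-fold above Null (3.51% higher), and Csn1s2b was 0.153 of its Null level (3.19% lower). The whey protein gene Wap and the mucin gene Glycam1 were also lower in B than in Null, at 13.1 against 296 and 14.2 against 240.5. They were the 2 lower ones of 16 other milk protein genes, of which 9 were at least 2-fold higher in B.

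The isoforms can be compared at equal copy number. With 1 allele at parturition, 4 of the 5 members were at least 2-fold higher in the column labelled A than in B, against 0.36% of tested genes. Csn1s2a differed most, at 4152 against 345, and Csn3 least, at 1.68-fold. Csn1s1 was 2.35-fold and Csn2 2.86-fold higher in A. For Csn1s2b (log2 1.10, at levels of 1.66 and 0.246) keratin scaling gave 0.99, under 2-fold. Some sample tags recur between these groups with the letter R or L added, and a common origin is neither stated nor denied. With 2 alleles, Csn1s1, Csn2, Csn1s2a and Csn3 in AB were 0.974, 0.884, 0.813 and 0.824 of their BB levels. The sign for Csn1s1 and Csn2 changed when columns were scaled by luminal keratins, and that for Csn1s1 also with the FPKM sum or with scaling genes of at least 5 FPKM. Csn1s2b was the exception, 10.05-fold higher in AB, where 1.06% of tested genes were at least 2-fold higher.

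On day 6 of pregnancy, Csn2, Csn1s2a and Csn1s1 stood between 1148 and 2959 in wild type and at 39.8 or lower in every mutant. Csn2 was 2959 in wild type, and 4.96 in Null, 0.102 in B, 0.707 in A, 2.83 in BB and 1.96 in AB. Csn1s2a was 1197 in wild type and 6.04, 0.102, 0.193, 0.476 and 0.227 in the same order. The 2-allele columns, which held 38.5% to 47.3% of wild-type Csn1s2a at parturition, held 0.0398% and 0.0190% of it on day 6. The 2 stages were normalised separately, so each share refers to the wild type of its own table.

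Csn1s1 was 1148 in wild type, 2.62 in Null, 2.92 in B, 33.3 in A, 39.8 in BB and 7.84 in AB on day 6. A and BB stood above the other mutants. Csn3 was 211 in wild type, 58.5 in Null, 12.9 in B, 26.9 in A, 27.4 in BB and 40.2 in AB. The Null column was thus the highest mutant for Csn3, Csn2 and Csn1s2a, and the lowest for Csn1s1. Csn1s2b was 1.25 in wild type and between 0.0612 and 0.212 elsewhere. It reached 1 FPKM in 1 column only, and so did not enter the tested set of day 6.

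The 4 members that entered that set were all lower than wild type in each genotype. Of 13367 tested genes, 2.09% were lower in Null, 5.18% in B, 5.54% in A, 3.6% in BB and 5.01% in AB, and 2.21%, 7.56%, 7.01%, 5.12% and 6.78% were higher. Over all 5 members the median log2 ratios were −7.41, −8.20, −5.07, −4.81 and −7.02, against medians of all tested genes between −0.02 and 0.04. Each of these comparisons uses the same wild-type column.

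Between mutants on day 6, Csn2, Csn1s2a and Csn3 were at least 2-fold lower in B than in Null (log2 −2.44, −2.68 and −2.10), where 3.95% of tested genes were lower. They were also lower in A than in Null (−1.80, −2.56 and −1.09), where 4.67% were lower, although for Csn3 this ended under 4 of the 5 alternative settings. Csn1s1 was higher in A than in Null (3.24; 6.08% of tested genes higher). Csn1s1 and Csn3 were higher in A than in B (3.13 and 1.01), against 0.135% of tested genes. Csn1s1, Csn2 and Csn3 were higher in BB than in B (3.38, 1.80 and 1.03; 1.87% higher) and in AB than in B (1.17, 1.43 and 1.57; 2.87% higher). For Csn3 in BB against B the call ended without scaling (0.88), with the FPKM sum (0.95) and with scaling genes of at least 5 FPKM (0.98), and for Csn1s1 in AB against B without scaling (0.99). Csn1s1 was lower in AB than in BB (−2.21; 0.988% lower) and than in A (−1.96; 4.11% lower).

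Other tissue stood beside the AB column of day 6. Its 9 skeletal muscle markers summed to 7097 scaled FPKM, against 43.5 to 534 in the other 5 columns, and its 8 luminal markers to 826 against 1121 to 1738. Relative to the luminal keratins Krt8, Krt18 and Krt19, Csn3 in AB was higher than in BB (log2 1.19 in place of 0.54) and Csn1s1 was still lower (−1.60 in place of −2.21). In bulk tissue, fewer luminal cells and less casein RNA per cell cannot be told apart. At parturition the luminal markers summed to 1221 in Null, 1298 in wild type and 1987 to 2267 in the other columns. There Csn2 per luminal keratin was 0.196% of wild type in Null, 22.6% in BB and 24.2% in AB. Muscle markers at parturition summed to 2260 to 3702 in Null, B and A, 240 in wild type and 9.19 and 11.5 in BB and AB. The 7 fibroblast markers summed to 1838 in Null, 4205 to 8910 in the other mutants and 2098 in wild type on day 6, and to 1530 to 2304 in the mutants and 384 in wild type at parturition. White adipocyte markers at parturition ran opposite to the casein levels between allele numbers, with 25804 in Null, 15441 in B, 16378 in A, 8355 in BB, 6850 in AB and 3876 in wild type. On day 6 they summed to 33908 in Null, 15970 in wild type and 17241 to 21925 elsewhere. Brown adipocyte markers on day 6 summed to 1598 in wild type and 124 to 617 in the mutants. Mast cell markers on day 6 summed to 12.0 in wild type, 40.9 in Null and 250 to 429 in the other mutants, and B cell markers to 155 in B, 135 in A and 3.28 to 14.3 elsewhere. The part of these tissues in the casein differences was not tested beyond the keratin scaling.

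**Figure D3:**
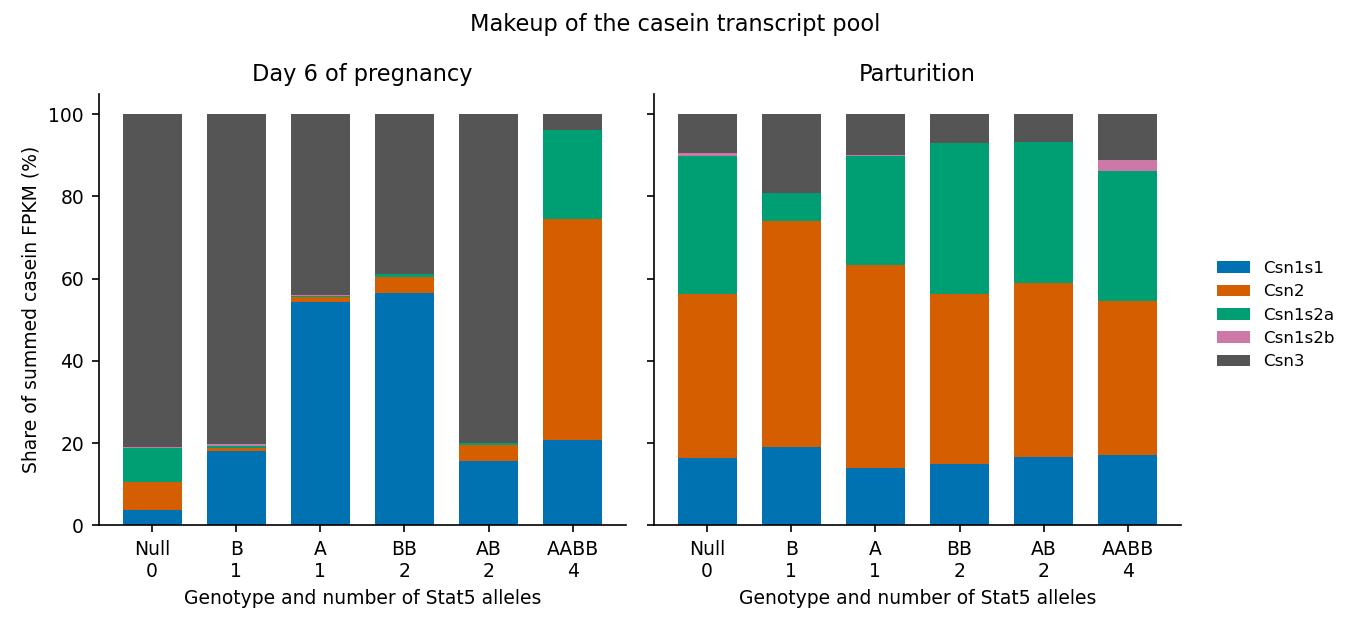
Share of each gene in the summed FPKM of the 5 caseins, in each genotype column on day 6 (left) and at parturition (right). Wild type on day 6 is mostly Csn2 (53.6%) and the mutants mostly Csn3 or Csn1s1, whereas at parturition Null (39.8% Csn2) is closest to wild type (37.4%) in overall makeup. Mutant pools on day 6 sum to 16.1 to 72.3 scaled FPKM, against 5515 in wild type.

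The makeup of the casein pool, a ratio within a column, does not depend on scaling between columns. In wild type at parturition Csn2 made up 37.4% of casein FPKM, Csn1s2a 31.7%, Csn1s1 17.0%, Csn3 11.2% and Csn1s2b 2.63%. In Null these were 39.8%, 33.6%, 16.4%, 9.37% and 0.857%, so that 4.19% of the pool would have to be reassigned to match wild type. That figure was 27.3% in B, 11.9% in A, 8.85% in BB and 7.29% in AB. In B, Csn1s2a was only 7.03% of the pool and Csn3 19.1%. The share of Csn1s2b was 0.00500% in B, 0.0106% in both A and BB and 0.122% in AB, below Null in each.

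On day 6 every mutant pool differed from wild type by 70.7% to 77.3%. These pools were small, summing to 16.1 to 72.3 scaled FPKM in the mutants against 5515 in wild type. In B and A, Csn2, Csn1s2a and Csn1s2b were each below 1 FPKM, where levels have no stated precision. Csn3 made up 3.82% of casein FPKM in wild type, and 80.9% in Null, 80.2% in B, 44.0% in A, 38.8% in BB and 79.9% in AB. Csn1s1 made up 54.4% in A and 56.4% in BB, against 20.8% in wild type. Csn2, at 53.6% in wild type, was between 0.633% and 6.87% of the mutant pools.

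Genes around the caseins on chromosome 5 were taken from RefSeq gene order, without coordinates because the files use build mm9. Of 3 measured genes within the cluster and 5 on each side, none entered the tested set on day 6. At parturition 1 did, Sult1d1, a sulfotransferase gene on the Csn1s1 side. It was 0.0833 in Null, 0.355 in B, 0.465 in A, 1.56 in BB, 0.875 in AB and 7.06 in wild type. Odam, which encodes a secreted protein of tooth-forming cells and lies between Csn1s2b and Csn3, had 0 in Null, 0.0339 in B, 0.164 in A, 0.623 in BB, 0.603 in AB and 2.54 in wild type, and reached 1 FPKM only there. The other 11 neighbours did not exceed 0.719 in any column of either stage.

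Genes with the most similar profile were sought by Pearson's r over the 6 columns of a stage with the mean log2 level of the members, among genes of at least 10 FPKM in 1 column and a 4-fold range. At parturition, of 1242 such genes, these were Olah (r = 0.997), a thioesterase gene of medium-chain fatty acid synthesis, Sec11c (0.996), a signal peptidase subunit gene, Orai1 (0.995), a calcium channel gene, Nucb2 (0.995) and Fkbp11 (0.994), a prolyl isomerase gene of the endoplasmic reticulum. Olah was 1.10 in Null, 2.54 in B, 11.2 in A, 262 in BB, 212 in AB and 1156 in wild type. Fkbp11 was 6.88 in Null, 18.3 in B, 23.6 in A, 256 in BB, 289 in AB and 1026 in wild type. On day 6, of 493 genes, they were Lalba (0.991), Ppp1r3b (0.988), Acot11 (0.985), an acyl-CoA thioesterase gene, Lars2 (0.980), a mitochondrial leucyl-tRNA synthetase gene, and Expi (0.976). Lalba, the lactose synthase subunit gene, was 10.5 in wild type and at most 0.917 elsewhere. The members themselves correlated with their mean at 0.871 (Csn1s2b) to 0.984 (Csn1s1) at parturition. These are descriptions over 6 means that share the wild-type column.

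**Figure D4:**
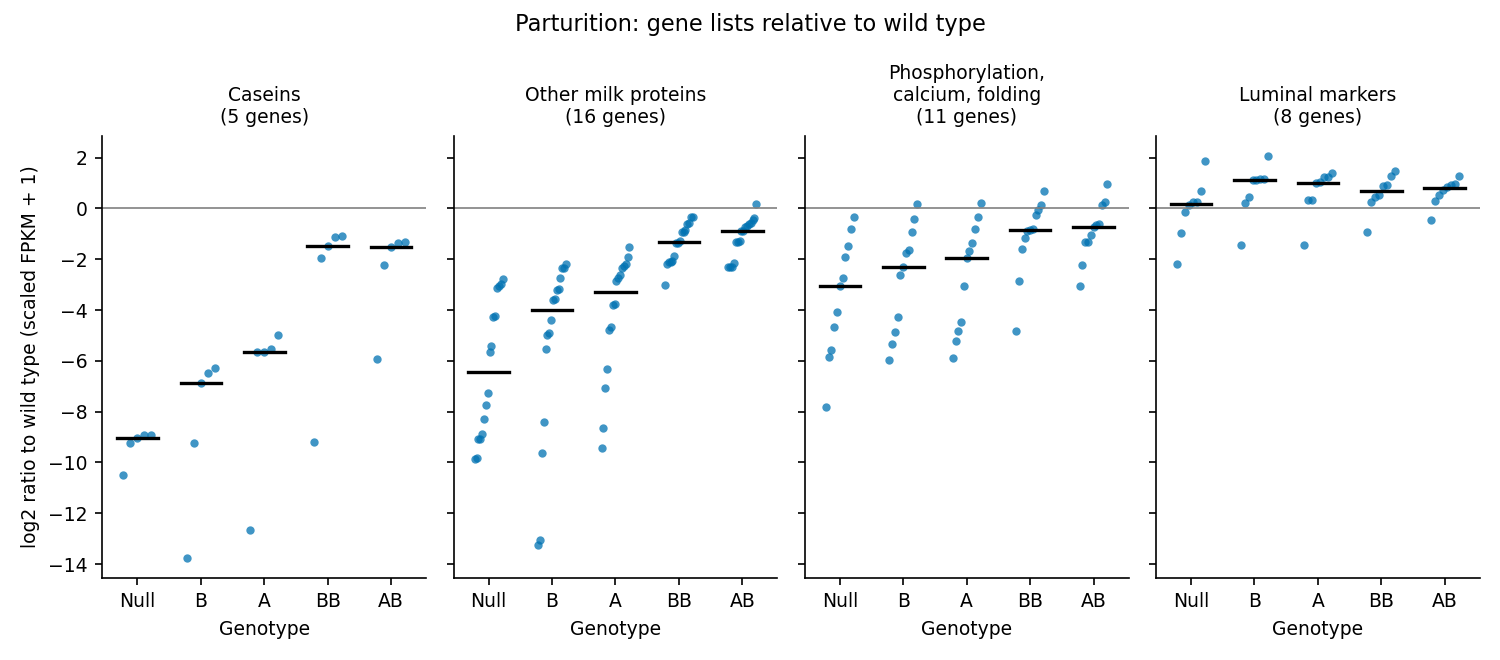
Log2 ratio to wild type at parturition, on the scale of scaled FPKM + 1, for the caseins, other milk proteins, genes of casein phosphorylation, calcium and folding, and luminal markers, in the 5 mutant columns. Points are genes, black bars medians of the genes shown and the grey line wild type. The casein median lies at −9.05 in Null and −1.52 in AB, while luminal markers have medians between 0.19 and 1.12.

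Other genes of milk protein production were read from lists. Of 16 other milk protein genes at parturition, 16 were lower than wild type in Null, B and A, 9 in BB and 7 in AB, and none was higher. Of all tested genes 10.7%, 10.1%, 10%, 5.37% and 5.45% were lower in these columns. Relative to the FPKM sum the counts were 15, 12, 9, 5 and 4, with 1 gene higher in AB, and relative to the luminal keratins 16, 16, 16, 16 and 15. Of the 13061 tested genes, 224, 181, 185, 170 and 138 were lower with the FPKM sum. With the keratins 1661, 4655, 4491, 4899 and 3352 were lower. On the main scale the medians of the milk protein genes were −6.46, −4.01, −3.30, −1.33 and −0.89. Spp1 (osteopontin) was 33.5 in Null against 32349.8 in wild type, and Wap 296 against 138276. Wap with 2 alleles reached 12.3% of wild type in BB and 20.0% in AB, between the shares of Csn1s2b and Csn3. On day 6, 13 of these genes were tested, and 5 to 9 were lower in each mutant, where 2.09% to 5.54% of all tested genes were lower. Ltf, which encodes lactoferrin, was higher in Null, at 308 against 50.6.

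Of 11 genes that phosphorylate caseins, move calcium or fold secreted protein, 9 were lower at parturition in Null, 8 in B and in A, 4 in BB and 5 in AB, against 10.7%, 10.1%, 10%, 5.37% and 5.45% of all tested genes. Relative to the FPKM sum 6, 4, 5, 2 and 2 were lower, and 2 or 3 higher in each column. Of the 13061 tested genes, 224, 181, 185, 170 and 138 were lower on that scale and 10886, 10656, 10209, 4446 and 5255 higher. Fam20c, which encodes the secretory casein kinase, was 8.54 in Null, 7.30 in B, 6.35 in A, 53.4 in BB, 64.7 in AB and 162 in wild type. The gene of its pseudokinase partner, Fam20a, was 6.30, 29.3, 21.2, 103, 116 and 186 in the same order. Atp2b2, which encodes the calcium pump of the apical membrane, was 0.114, 0.0364, 0.0824, 1.25, 6.67 and 63.3, so that BB stood at 1.98% and AB at 10.5% of wild type. Atp2c2 (a Golgi calcium pump gene) and the phosphate transporter gene Slc34a2 were 3.01 and 1.94 in Null against 191 and 656 in wild type. On day 6, of 9 tested, 1 was lower in Null and 2 in each other genotype, against 2.09% of all tested genes in Null and 3.6% to 5.54% in the others.

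Upstream of the caseins, the prolactin receptor gene Prlr was 51.6 in Null, 47.4 in B, 21.7 in A, 25.4 in BB, 14.9 in AB and 28.3 in wild type at parturition, and Jak2 ranged from 12.7 to 19.3. Of the 6 receptor, kinase and STAT genes, 2 were lower in Null, A and AB and 1 in B and BB, all of them Stat5a or Stat5b. Of all tested genes 10.7%, 10.1%, 10%, 5.37% and 5.45% were lower in Null, B, A, BB and AB. Ghr, the growth hormone receptor gene, was higher in Null (217 against 61.4), and Stat3 in A (80.03 against 38.1). In these columns 19.1% and 17.3% of all tested genes were higher. Relative to the FPKM sum 1, 1, 0, 1 and 0 of the 6 were lower and 4, 4, 4, 2 and 3 higher in Null, B, A, BB and AB. Of the 13061 tested genes, 224, 181, 185, 170 and 138 were lower on that scale and 10886, 10656, 10209, 4446 and 5255 higher. Cish, a feedback inhibitor and STAT5 target, was 6.68 in Null and 43.5 in wild type, while Socs1 and Socs3 were higher in Null (log2 1.05 and 1.15). The lowest level among the 4 feedback inhibitors was 2.27 in Null and 0.577 in wild type. Levels below 1 FPKM have no stated precision. Of 12 regulators of casein genes, 2 were lower in Null, Elf5 (66.9 against 1085) and Id2 (56.04 against 346), and 3 were higher, Nfic, Esr1 and Tnfsf11. These counts stand beside 10.7% lower and 19.1% higher over all tested genes, and became 1 and 9 relative to the FPKM sum. On that scale 224 of the 13061 tested genes were lower in Null and 10886 higher. In BB none was lower, with Elf5 at 725, against 3 in B, 2 in A and 2 in AB. In B, A, BB and AB 2, 2, 1 and 1 of the 12 were higher. Of all tested genes 10.1%, 10%, 5.37% and 5.45% were lower in these columns, and 18.2%, 17.3%, 8.07% and 10.2% higher. The highest level among the 12 was 725 in BB and 463 in AB. Nr3c1, the glucocorticoid receptor gene, was 31.0 in Null and 57.0 in wild type, and Cebpb 30.8 and 46.2, both within 2-fold.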

How the data were processed

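Poly(A) RNA of mammary tissue without lymph nodes was read on a HiSeq sequencer, as stated in the labels' protocols. Reads were processed with CASAVA and aligned with TopHat to build mm9, per the submitters' processing notes. The FPKM program and annotation are not given in the sources used here. The authors deposited FPKM as 1 mean column per genotype and stage, and 57.9% to 62.6% of values of at least 1 end in 333 or 667 in columns with 3 listed samples, against at most 0.173% in the others. The labels' protocol names 2 mice per genotype, although 3 samples are listed for each group on day 6 and for B at parturition. Because only means were available, a test per sample, a replicate block and leaving out replicates were not possible.

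Each column was divided by a factor, its median ratio to the genes' geometric means; genes reaching 1 FPKM in all 6 columns of the stage entered (11733 and 10864 genes; factors 0.916 to 1.07 and 0.794 to 1.13). Genes with at least 1 FPKM in 2 columns were tested for a 2-fold difference of scaled FPKM + 1, in 12 comparisons per stage. The scaling was tested on simulated data in which 200 genes of 1 column were changed 4-fold, as many up as down. At parturition 1400 genes were lower and 2489 higher in Null, so that simulation cannot check the scaling for such uneven changes. Members, lists and the naming rule (up to 4 genes per list, and 5 per stage by likeness) were chosen with earlier results of these data known; regulators without large differences, and Wap, Ltf, Socs1, Socs3, Prlr, Jak2, Stat3 and Esr1, were named after their values were seen. Symbols missing from the tables were left out of the lists. Python 3.11.15, numpy 2.4.6, pandas 2.3.3 and matplotlib 3.10.9 were used.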

Additional observations from a re-analysis of the deposited data

How the results depend on the processing

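Of 120 ratios of a member between 2 genotypes, none that was at least 2-fold reversed under any of 5 settings. Without scaling 5 such differences ended, among them Csn2 (log2 −0.83) and Csn1s2a (−0.77) in BB against wild type at parturition. With columns scaled to their FPKM sum 8 ended and 2 began, with luminal keratin scaling 6 ended and 4 began, with scaling genes of at least 5 FPKM 2 ended, and with a pseudocount of 0.1, 4 began. Against wild type, 20 of 20 ratios of the 4 tested members on day 6 were lower under every setting, and at parturition 25 of 25, except 23 without scaling and 19 with the FPKM sum. Values moved over 1.5 times in 46, 38 and 28 of 120 ratios with the FPKM sum, the keratins and the pseudocount. The counts of all tested genes past 2-fold moved by more than 1.5 times in 19 of 24 comparisons with the pseudocount (for example 1756 to 2818 in BB and 2046 to 3136 in AB against wild type at parturition) and in 10 with the FPKM sum (3889 to 11110 in Null, 3696 to 10837 in B, 3570 to 10394 in A, 1756 to 4616 in BB and 2046 to 5393 in AB there). With keratin scaling the lower and higher counts there became 4655 and 847 in B, 4491 and 825 in A, 4899 and 240 in BB and 3352 and 465 in AB, from 1317 and 2379, 1307 and 2263, 702 and 1054, and 712 and 1334. On day 6 it gave 142 lower and 5384 higher in AB in place of 670 and 906. List counts under other scalings were added after seeing the data. No paired analysis was possible because the columns are means over samples and carry no replicate numbers; leaving out a replicate could not be run for the same reason. Read depth is unknown, so levels below 1 FPKM at either stage have no stated precision.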
